A study of Drosophila melanogaster with 12 samples.

Results

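The translation elongation factors of the fly head were followed here through 5 genes: eEF1alpha1, eEF1alpha2, eEF1beta, eEF1gamma and eEF2. A gene was taken where a probe set of the array carried its symbol as the sole annotated gene, brought up to date through the Entrez identifier. By this rule 2 of the 5 genes were found among 13966 tested probe sets (10845 named genes), eEF1alpha2 (locus tag CG1873, probe set 143142_at) and eEF1gamma (CG11901, 150815_at). Another, eEF1beta (CG6341, 154264_at), had no annotated probe set but is listed in the RefSeq gene table with this probe set as a synonym. Synonyms of this kind matched the array annotation in 113 of the 113 cases where both were present, so eEF1beta was read through it. No probe set was annotated to eEF1alpha1 or eEF2, which were not analysed here, and the comparison of eEF1alpha2 with eEF1alpha1 could therefore not be made.

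Elongation is the step of protein synthesis in which the ribosome moves along the messenger and extends the protein chain. The GTPase eEF1alpha brings each charged tRNA to the ribosome, the eEF1beta, eEF1gamma and eEF1delta subunits form the complex that reloads eEF1alpha with GTP, and eEF2 moves the ribosome to the next codon. Animals often carry several genes for eEF1alpha, and in mammals the second form, eEF1A2, is the one used by mature neurons and muscle.

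The flies were y w; tim01, a genotype without working TIM protein and thus without a molecular clock, and every group carried it. They were kept in constant darkness throughout and reared at 25 °C up to early pupal stages. From then on they were under a thermocycle that alternated 12 h of 18 °C with 12 h of 25 °C, which went on for 4 days after eclosion. Each array was made from a pool of heads sieved from frozen, broken flies. On the thermocycle day (CA) arrays were made at 2, 6 and 10 h, in the 18 °C cryophase, and at 14, 18 and 22 h, in the 25 °C warm phase. On the following day (AA) the flies stayed at 25 °C and the same hours make up the subjective cold and the subjective warm phase. This gave 4 groups of 3 arrays, with 1 array per hour, so the spread within a group includes any change with the hour. No label says that arrays came from separate cultures, and the p values measure the spread between these arrays. Values are log2 signals made by the authors with robust multiarray averaging (RMA).

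The 12 arrays had medians between 5.18 and 5.22. The CA 18-h array stood apart from the other 11: its spiked-in controls averaged 7.91 against 8.65 to 9.13, its 3′ minus 5′ control differences were the lowest of the set (GAPDH 2.01 against 2.40 to 2.64, ACTIN 0.82 against 0.87 to 1.85), and its best correlation with any other array was 0.990 against 0.994 to 0.997. Values without it are given beside the results that rest on it. Of all named genes, 14.1% had their lowest and 20.7% their highest value on this array, so to be extreme there is common. None of 14 neuron and 15 photoreceptor markers was below the mean of the unspiked controls on all arrays. The same was true of 19 muscle markers, whereas 1 of 31 gut, 4 of 24 male tract and 2 of 18 ovary markers were below it throughout. Most markers of those tissues thus passed as well, so this measure does not tell head RNA from that of other body parts. The 3 probe sets for tim ranged from 7.27 to 7.79, from 5.13 to 6.24 and from 1.88 to 4.10. Signals this far apart for 1 gene do not give the amount of its transcript, nor whether the protein is made.

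eEF1alpha2, the tRNA-carrying GTPase, varied most among the 3. In the cryophase its log2 signal was 7.67 at 2 h, 6.62 at 6 h and 6.81 at 10 h. In the CA warm phase it was 7.67 at 14 h, 8.93 at 18 h and 8.06 at 22 h. On the AA day it was 7.64, 6.96 and 6.86 in the subjective cryophase and 7.31, 6.79 and 6.77 in the subjective warm phase. The highest arrays were thus the last 2 of the thermocycle day, and the lowest was the 6-h array at 18 °C. The range over the 12 arrays was 2.31, or 4.96-fold, and the SD was 0.68 against a median SD of 0.12 over all tested probe sets. Only 16 probe sets had a larger SD, and 51 did when the CA 18-h array was left out, where the SD of eEF1alpha2 was 0.49.

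eEF1beta, a subunit that exchanges GDP for GTP on eEF1alpha, ran within a narrow band. Its log2 signal was 10.59, 10.46 and 10.40 in the cryophase and 10.57, 10.65 and 10.88 in the CA warm phase. On the AA day it was 10.29, 10.52 and 10.50, and then 10.60, 10.46 and 10.50. The CA 22-h array was its highest and the AA 2-h array its lowest. Its range was 0.59, or 1.5-fold, with an SD of 0.15.

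eEF1gamma, the structural subunit of the same exchange complex, had a like spread but another shape. Its log2 signal was 9.84, 9.78 and 9.69 in the cryophase and 9.82, 9.39 and 9.97 in the CA warm phase, and on the AA day it was 9.71, 9.79 and 9.93 and then 9.87, 9.74 and 9.79. The lowest value came from the CA 18-h array, on which eEF1alpha2 was at its highest, and the next array at 22 h held its highest value. Its SD was 0.15 over 12 arrays and 0.087 without the CA 18-h array, below the median SD of 0.11 over all probe sets on those 11 arrays.

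**Figure D1:**
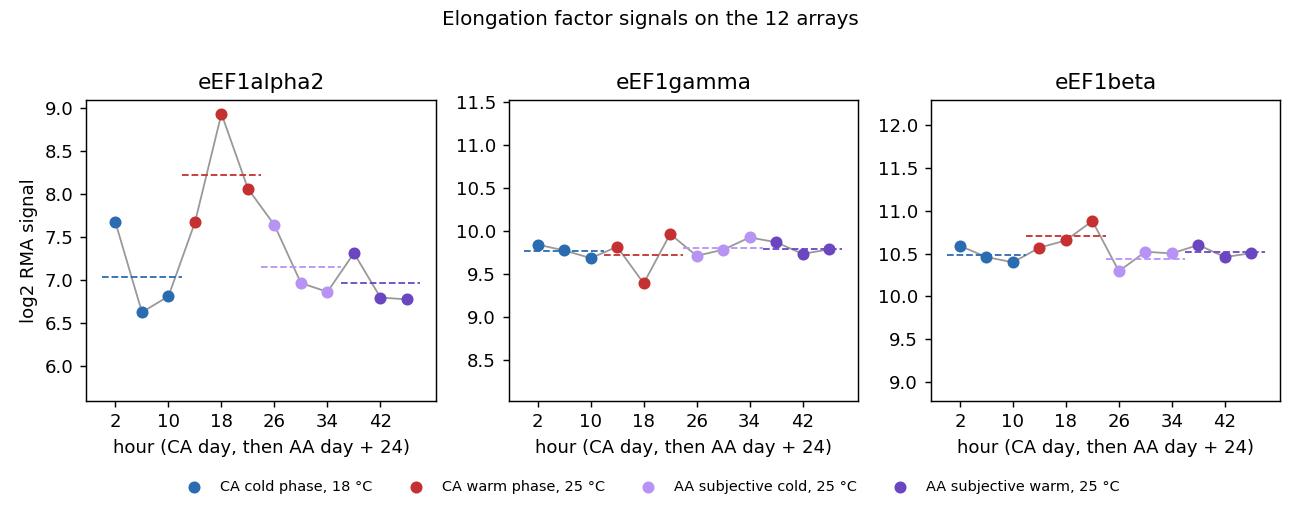
Log2 RMA signal (vertical axis, the same span in each panel) of eEF1alpha2, eEF1gamma and eEF1beta against the hour of the CA day and, with 24 added, of the AA day. Each point is 1 array, coloured by group, and dashed lines are group means of 3 arrays. eEF1alpha2 reached 8.93 at CA 18 h and stayed between 6.62 and 8.06 on the other arrays, whereas the other 2 stayed within 0.59.

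The first comparison asked whether the transcripts differed between the 18 °C and the 25 °C phase of the thermocycle. eEF1alpha2 averaged 7.03 ± 0.56 (SD, n = 3) in the cryophase and 8.22 ± 0.65 in the warm phase, a difference of -1.19 (SE 0.32), or 2.28-fold higher in the warm phase. The 2 groups did not overlap, but met within the third decimal. The highest cryophase array, at 2 h, read 7.666 and the lowest warm-phase array, at 14 h, read 7.667. Of all probe sets, 5.53% were lower in the cryophase without overlap. The limma fit over all 13966 probe sets gave eEF1alpha2 an adjusted p of 0.348, so the difference did not pass the threshold of 0.05, although it was the fourth largest in size of all. None of the 3 elongation factors was called, and in this comparison 0.00716% of all probe sets were, which is 1 probe set. Before adjustment, eEF1alpha2 and eEF1beta were among the 8.15% of all probe sets with a limma p under 0.05. The difference without the CA 18-h array was -0.83 (SE 0.29, adjusted p = 0.946).

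The exchange subunits differed less. eEF1beta averaged 10.48 ± 0.10 in the cryophase and 10.70 ± 0.16 in the warm phase, a difference of -0.22 (SE 0.10, adjusted p = 0.604). It rests in part on the CA 22-h array, its highest, without which it was -0.13 (SE 0.10, adjusted p = 0.704). Its groups overlapped, since the 2-h array at 18 °C (10.59) lay above the 14-h array at 25 °C (10.57). eEF1gamma averaged 9.77 ± 0.08 and 9.73 ± 0.30, a difference of 0.04 (SE 0.12, adjusted p = 0.962) that turned to -0.12 without the CA 18-h array. Its 95% confidence interval ran from -0.22 to 0.30, and that of eEF1beta from -0.42 to -0.01.

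On the CA day the 2- and 14-h arrays are the first after each step in temperature. When these hours were left out of both days, the cryophase was left with its 6- and 10-h arrays (6.62 and 6.81) and the warm phase with its 18- and 22-h arrays (8.93 and 8.06). The difference for eEF1alpha2 was then -1.78 (SE 0.23) and passed the threshold with a limma adjusted p of 0.0375, as 1 of 14 probe sets (0.1%) called in that fit. The fit had 2 arrays per group, and 1 of the warm pair was the CA 18-h array. It left out the highest cryophase array of eEF1alpha2 (7.666) and its lowest CA warm array (7.667), so its difference was bound to widen. In AA, without a step in temperature, its 2- and 14-h arrays were also the highest of their phases (7.64 and 7.31).

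The second comparison put the same hours against each other on the AA day, when the temperature did not change. eEF1alpha2 averaged 7.15 ± 0.42 during the subjective cryophase and 6.96 ± 0.30 in the subjective warm phase, a difference of 0.19 (SE 0.32, limma adjusted p = 0.9997, interval -0.50 to 0.89). eEF1beta differed by -0.08 (SE 0.10) and eEF1gamma by 0.01 (SE 0.12). All 3 overlapped between the phases, and 0% of all probe sets were called by limma, while 4.55% had an unadjusted p under 0.05, none of the 3 among them.

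The direct test of whether the phase difference of the CA day was another than that of the AA day gave -1.38 (SE 0.46) for eEF1alpha2. Its adjusted p was 0.574, and 0% of all probe sets were called in this test, while 7.9% had an unadjusted p under 0.05. eEF1alpha2 was 1 of these, with an unadjusted p of 0.00945. The value was -0.14 (SE 0.13, adjusted p = 0.830) for eEF1beta and 0.03 (SE 0.17, adjusted p = 0.976) for eEF1gamma, which turned to -0.13 without the CA 18-h array. Only 5 probe sets had a larger value than eEF1alpha2 in size.

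Comparing each phase with the same hours of the other day sets 18 °C against 25 °C in the cold phase, and 25 °C after a cryophase against 25 °C throughout in the warm phase. At 2, 6 and 10 h the CA signal of eEF1alpha2 was 0.03 above, 0.34 below and 0.05 below that of AA. The group difference was -0.12 (SE 0.32, limma adjusted p = 0.9999), with an interval from -0.81 to 0.57. eEF1gamma differed by -0.04 (SE 0.12) and eEF1beta by 0.04 (SE 0.10), all with overlap, and 0% of probe sets were called, while 3.54% had an unadjusted p under 0.05, none of the 3 among them. The 3 arrays of eEF1alpha2 at 18 °C (6.62 to 7.67) spanned the whole range of those in the subjective cold phase (6.86 to 7.64).

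In the warm phase the distance between the days was wider. The CA signal of eEF1alpha2 exceeded that of AA by 0.36 at 14 h, by 2.14 (4.40-fold) at 18 h and by 1.29 (2.44-fold) at 22 h. The group means were 8.22 ± 0.65 and 6.96 ± 0.30, a difference of 1.26 (SE 0.32), or 2.40-fold, with an adjusted p of 0.185. All 3 CA arrays (7.67 to 8.93) lay above all 3 AA arrays (6.77 to 7.31), as 8.37% of all probe sets did. The difference was the third largest of all in size, but 0.0143% of probe sets (2) passed the threshold and eEF1alpha2 was not 1 of them. By the limma p before adjustment (0.00171) it was among the 14.6% of probe sets under 0.05. Leaving out the CA 18-h array gave 0.91 (SE 0.29, adjusted p = 0.368). This comparison and that of the cryophase with the warm phase share the 3 CA warm arrays.

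eEF1beta was 0.18 (SE 0.10, adjusted p = 0.409) higher in the CA than in the AA warm phase, with overlapping arrays, and 0.09 (SE 0.10) higher without the CA 22-h array. Its largest gap between the days at 1 hour was 0.38, at 22 h. eEF1gamma differed by -0.07 (SE 0.12, adjusted p = 0.835), and by 0.09 when the CA 18-h array was left out.

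**Figure D2:**
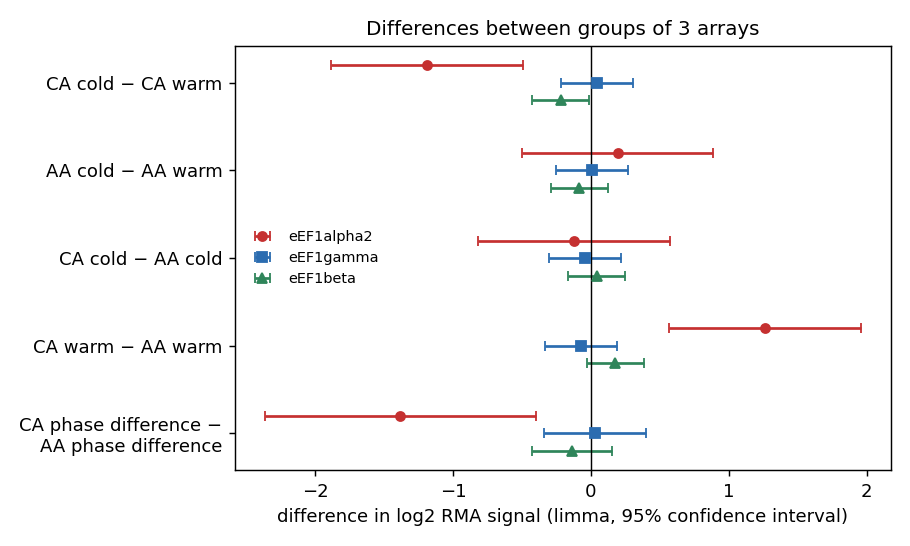
Difference in log2 RMA signal (horizontal axis) for the 5 comparisons between groups of 3 arrays, as limma estimates with 95% confidence intervals. The intervals of eEF1alpha2 leave out 0 in the 3 comparisons that use the CA warm arrays, before adjustment over all probe sets, with estimates of -1.19, 1.26 and -1.38, as does that of eEF1beta between the CA phases. The other estimates of eEF1beta and eEF1gamma lie within 0.22 of 0.

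Markers of other cell types were read beside the eEF1alpha2 values. The log2 of the summed signal of 24 male tract markers was 10.04 at CA 6 h, 10.01 at AA 2 h and 10.37 at AA 6 h. On the other arrays it ran from 9.52 to 9.68. For 31 gut markers it was 11.19, 11.33 and 11.12 on the same arrays and 10.54 to 10.77 on the others. The CA 6-h, AA 2-h and AA 6-h arrays all belong to the cold-phase groups. On them eEF1alpha2 was at 6.62, its lowest value, at 7.64, its highest of the AA day, and at 6.96. The summed signal of 19 muscle markers, on the log2 scale, ranged from 12.75 to 12.81 in the CA warm phase, 12.68 to 12.76 in the cryophase, 12.62 to 12.83 in the AA subjective cold and 12.54 to 12.68 in the AA subjective warm phase. In the comparison of the warm phases the median muscle marker differed by 0.17 against -0.01 for all genes, with 6 markers higher and 2 lower at an unadjusted p under 0.05, which 14.6% of all probe sets reached. The summed signal of 14 neuron markers ranged from 10.23 to 10.40 in the CA warm and from 10.17 to 10.29 in the AA subjective warm phase, and their median differed by 0.09, with 3 higher and 2 lower. No muscle or neuron marker was below the unspiked controls on all arrays. Without the CA 18-h array the medians were 0.04 for muscle and 0.06 for neuron markers, against -0.03 for all genes, with 3 higher and 2 lower and 3 higher and 1 lower, where 9.8% of all probe sets had such a p. The part of these markers, those of gut and male tract included, in the eEF1alpha2 values was not tested. Nor was that of the lower control differences of the CA 18-h array. In pooled heads fewer cells of a type and less RNA per cell cannot be told apart.

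Daily rhythm was read from the share of variance at a 24-h period (F24) and from a 24-h cosine fitted to each day. The CA profile of eEF1alpha2 had an F24 of 91.3% and a cosine of amplitude 1.04 on the log2 scale, a 4.25-fold change from trough to peak, with its peak at 19.4 h. The median F24 over all probe sets was 38.9%. The moderated F test gave an unadjusted p of 0.000216 and an adjusted p of 0.103, and none of the 3 elongation factors passed, beside 0.0501% of all probe sets (7). Its adjusted p without the CA 18-h array was 0.431.

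On the AA day the F24 of eEF1alpha2 was 10.2%, below the median of 40.4% over all probe sets. The cosine had an amplitude of 0.14 (adjusted p = 0.967). 0% of all probe sets passed in AA. Whether the 24-h component differed between the days was not tested.

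eEF1beta had an F24 of 86.7% on the CA day with a cosine peak at 21.1 h, close to that of eEF1alpha2, but an amplitude of 0.20 (adjusted p = 0.429). In AA its F24 was 49.5% (adjusted p = 0.953). eEF1gamma had 23.4% in CA (adjusted p = 0.872) and 67.8% in AA (adjusted p = 0.962). These F24 values say how a profile is shaped and not how large it is: the AA profile of eEF1gamma spanned 0.21.

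The members were compared with each other over arrays in 2 pairs. eEF1alpha2 and eEF1beta had a Pearson r of 0.55 over the 12 arrays (permutation p = 0.0724, adjusted 0.145) and a Spearman rho of 0.68 (permutation p = 0.0180, adjusted 0.0360). Within the CA day r was 0.70 (exact p = 0.150, n = 6) and within the AA day -0.49 (exact p = 0.392, n = 6). Without the CA 18- and 22-h arrays, the 2 farthest from the median of eEF1alpha2, r was 0.17 (permutation p = 0.652) and rho 0.46 (permutation p = 0.184). The Pearson correlation rests on those arrays, which are the extremes of eEF1alpha2 itself, and the rank correlation was lower without them. eEF1alpha2 and eEF1gamma had r = -0.43 (permutation p = 0.161) and rho = 0.15 (permutation p = 0.638), with r = 0.16 without these 2 arrays. Within the days r was -0.41 in CA (exact p = 0.425, n = 6) and -0.25 in AA (exact p = 0.703, n = 6).

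The genes whose profile over the 12 arrays was most like that of eEF1alpha2 were taken from 6171 named probe sets with an SD above the median. These were CG16953 (r = 0.99), lost (0.97), Ntan1 (0.96), CG5758 (0.96) and oys (0.96). CG16953 ran from 5.65 at CA 6 h to 6.86 at CA 18 h, and Ntan1 from 5.67 to 6.57 at the same hours. With the CA 18-h array left out, these 5 correlations were between 0.91 and 0.97. In Ntan1, which encodes an amidase acting on proteins with an N-terminal asparagine, the difference between the CA phases was -0.53 (SE 0.12, adjusted p = 0.276). The lost gene product takes part in localising messengers in the oocyte, and oys encodes a lysophospholipid acyltransferase. The points share arrays and normalization, and the correlations are a description.

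The profiles most opposed to eEF1alpha2 were those of CG14298 (r = -0.94), isoQC (-0.93), mys (-0.92), CG6770 (-0.92) and CG1136 (-0.91). mys encodes a beta integrin and was lowest on the CA 18-h array, at 5.97 against 6.45 to 6.75 on the others. CG6770 was at 10.27 there against 10.92 to 11.65. Without that array the 5 correlations lay between -0.81 and -0.91.

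**Figure D3:**
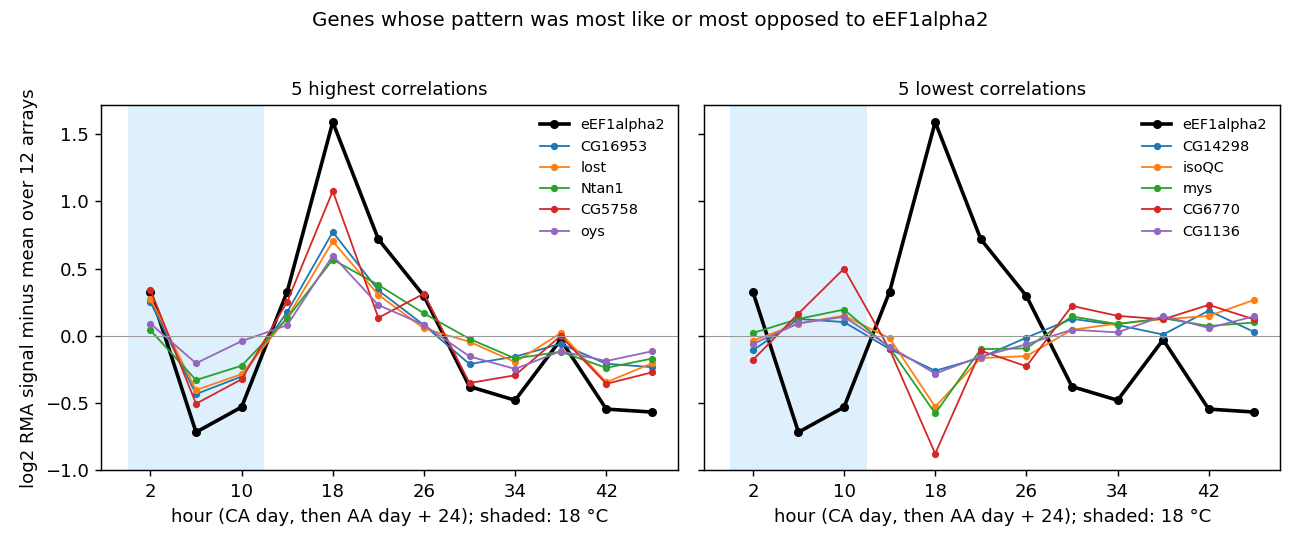
Log2 RMA signal minus the mean over the 12 arrays (vertical axis) against the hour of the CA day and, with 24 added, of the AA day, for eEF1alpha2 (black) and the 5 genes with the highest (left) and lowest (right) correlation with it. Shading marks 18 °C. The 5 most alike share the dip at CA 6 h and the peak at CA 18 h, with smaller swings than eEF1alpha2.

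The other members had other neighbours. eEF1beta was most like COX4 (r = 0.90), a subunit of cytochrome c oxidase, Nacalpha (0.88), which binds nascent chains at the ribosome, and Tapdelta (0.88), a subunit of the complex at the site where ribosomes dock on the endoplasmic reticulum. All 3 were highest at CA 22 h, as eEF1beta was, at 11.20, 9.04 and 8.31. eEF1gamma was most like Atg4a (r = 0.93), an autophagy protease, CG44153 (0.92) and CG1773 (0.90). These 3 were lowest on the CA 18-h array, and without it their correlations were 0.93, 0.76 and 0.64.

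The wider elongation machinery was read from lists of genes beside the members. Of the cytosolic elongation factors other than the 5, 3 were measured, and none was called in any comparison. eEF1delta, the further exchange subunit, was at 7.16, 7.27 and 7.40 in the cryophase and 7.49, 6.44 and 7.29 in the CA warm phase, and its difference was 0.20 (SE 0.22, adjusted p = 0.876), which turned to -0.12 (SE 0.15) when the CA 18-h array was left out. In AA it was at 6.89, 7.48 and 7.39 and then 7.41, 7.19 and 7.20. Like eEF1gamma it was lowest on the CA 18-h array, as were 14.1% of all named genes.

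eEF5, also called eIF5A, helps the ribosome through stretches such as runs of proline. It was at 9.33, 9.29 and 9.57 in the cryophase and at 9.38, 8.20 and 9.39 in the CA warm phase, a difference of 0.41 (SE 0.25, adjusted p = 0.717). That difference rests on the CA 18-h array, without which it was 0.01 (SE 0.14). In AA it was at 8.86, 9.33 and 9.31 and then 9.65, 9.42 and 9.36. Its 2 lowest arrays, CA 18 h and AA 2 h, were also the 2 lowest for eEF1delta and the 2 with the lowest ACTIN 3′ minus 5′ difference (0.82 and 0.87). The other 2 control differences did not set AA 2 h apart. GAPDH was 2.44 there and 2.40 at AA 18 h, and the eIF-4a control was 2.03 there and 1.56 at CA 22 h. Whether the lower signals and the control differences go together was not tested. eEFSec, the factor for selenocysteine, stayed between 3.27 and 3.49, below the 20th percentile of each array (3.67 to 3.76).

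Of the mitochondrial elongation factors, 1 had its highest arrays where eEF1alpha2 did. mEFTu1, the mitochondrial counterpart of eEF1alpha, was at 6.61, 6.27 and 6.003 in the cryophase and at 6.50, 7.14 and 7.05 in the CA warm phase. In AA it was at 6.66, 6.29 and 6.55 and then 6.32, 6.26 and 6.26. The CA 18- and 22-h arrays were its 2 highest. Its difference between the CA phases was -0.60 (SE 0.17, adjusted p = 0.355) and between the warm phases 0.62 (SE 0.17, adjusted p = 0.197). Without the CA 18-h array these were -0.48 (adjusted p = 0.961) and 0.49 (adjusted p = 0.397). The list of 5 measured mitochondrial factors includes mRRF1, a factor of ribosome recycling and not of elongation. Its median was -0.07 between the CA phases, against -0.01 for all genes.

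Diphthamide and hypusine, the modifications that eEF2 and eEF5 carry, are made by enzymes of which 7 were measured. All 7 had a negative fitted difference between the CA phases, as did 55.1% of all genes, and none was called. Their median was -0.08 against -0.01 for all genes. Without the CA 18-h array 6 of 7 were negative and the median was -0.04, against 48.8% and a median of 0.0028 for all genes. The lowest belonged to nero, the hydroxylase of the hypusine pathway, at -0.28 (SE 0.10, adjusted p = 0.515).

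Over 8 translation lists, which include the factors above, 124 of 193 genes were measured and 0 were called by limma in any of the 5 comparisons. Between the CA phases 5 were higher and 13 lower at an unadjusted p under 0.05, together 14.5% against 8.15% of all probe sets. Between the warm phases 14 were higher and 12 lower, together 21.0% against 14.6%. In AA 4.03% had such a p against 4.55% of all. Without the CA 18-h array the CA phase counts were 1 higher and 11 lower, 9.68% against 4.64% of all probe sets in that fit. Those between the warm phases were then 16 and 7, 18.5% against 9.8%. The genes of these lists do not vary independently, and the shares are a description.

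On all arrays no single direction ran through the lists. Between the CA phases the median was -0.03 for 37 initiation factors and -0.08 for 17 cytosolic aminoacyl-tRNA synthetases. It was -0.04 for 37 genes of the ribosomal protein list, like-named ones such as RpL7-like included. For 14 regulators of translation it was 0.01, against -0.01 for all genes. In the same order the medians were -0.04, -0.04, -0.02 and 0.03 without the CA 18-h array, against 0.0028 for all genes. The remaining list medians were also negative in that fit. They ran from -0.12 for the other cytosolic elongation factors to -0.04 for diphthamide and hypusine synthesis, so only the regulators had a positive median. eIF1, which helps select the start codon, differed by 0.65 (SE 0.27, adjusted p = 0.580). pAbp, the poly(A)-binding protein, differed by 0.45 (SE 0.17, adjusted p = 0.549). Both were lowest on the CA 18-h array, and without it their differences were 0.31 (SE 0.22) and 0.19 (SE 0.10). RpL17, a protein of the large ribosomal subunit, differed by -0.39 (SE 0.10, adjusted p = 0.309), and RpLP0, the base of the ribosomal stalk, by -0.36 (SE 0.12, adjusted p = 0.477). The -1.19 of eEF1alpha2 lay outside the range of these lists, which ran from -0.60 (mEFTu1) to 0.65 (eIF1). With the CA 18-h array left out, eEF1alpha2 was at -0.83 and the lists ran from -0.48 to 0.34.

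**Figure D4:**
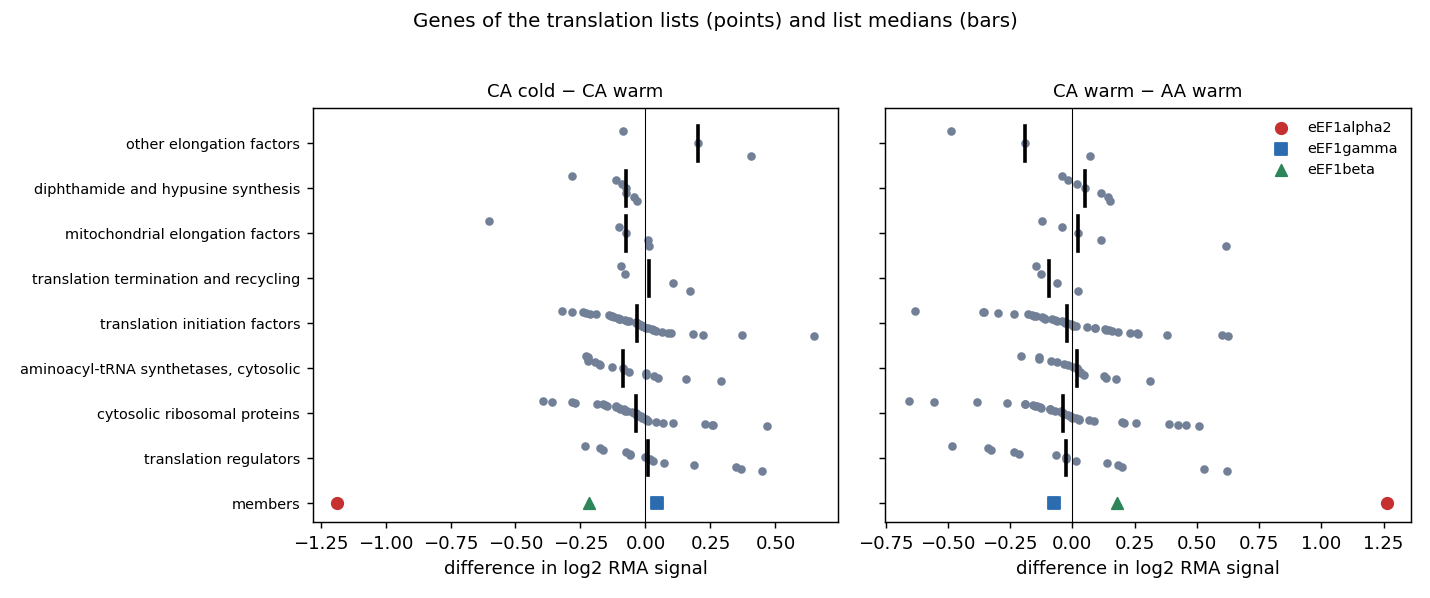
Differences in log2 RMA signal (horizontal axis) for genes of 8 translation lists (grey points, 1 per gene, spread vertically for legibility), with black bars at list medians, and for the members in the bottom row. Left, cryophase minus CA warm phase; right, CA minus AA warm phase. eEF1alpha2, at -1.19 and 1.26, lies beyond every listed gene in both, and eEF1beta and eEF1gamma lie within their spread.

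RpLP2, a protein of the ribosomal stalk, to which elongation factors bind, was singled out after its values were seen, because it was the only listed gene called without the CA 18-h array. It was at 11.83, 11.97 and 11.82 in the cryophase and at 12.02, 10.91 and 11.93 in the CA warm phase, then at 11.73, 11.67 and 11.98 and at 11.28, 10.999 and 11.06 in AA. The 4 lowest arrays were CA 18 h and the 3 of the AA subjective warm phase. On all arrays it differed by 0.51 (SE 0.22, adjusted p = 0.308) between the warm phases and by 0.68 (SE 0.22, adjusted p = 0.9997) between the AA phases. Without the CA 18-h array these were 0.86 (SE 0.11, adjusted p = 0.0156) and 0.68 (SE 0.10, adjusted p = 0.0260), in fits that called 0.0573% (8) and 0.0358% (5) of all probe sets. For eEF1alpha2 the CA 18-h array was the highest and not the lowest, and its AA phases overlapped.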

How the data were processed

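Heads of y w; tim01 flies were hybridised to 12 Affymetrix Drosophila Genome 1 arrays. The deposited values are log2 signals that the authors made with RMA (background correction, quantile normalization and median-polish summary; named without a version in the submitters' processing notes). Since quantile normalization makes the distributions of the arrays alike, these values cannot show a shift common to most transcripts. No further normalization was applied. The depth of an array has no count, and precision is limited by how many arrays there are.

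Of 14010 probe sets, 44 controls were set aside. Of the 13966 tested, 12443 had 1 gene symbol, 327 several and 1196 none in the platform annotation, and 12394 symbols were updated through the RefSeq gene table of assembly Release 6 plus ISO1 MT, used for names alone. In gene lists the probe set with the highest mean stood for a gene. The ribosomal protein list took in like-named genes such as RpL7-like, and genes of low signal such as RpL10Aa (2.10 to 2.31).

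With limma 3.58.1 (R 4.3.3), the 4 group means were estimated from all 12 arrays together (8 residual degrees of freedom) and compared two-sided, with Benjamini-Hochberg adjustment over all tested probe sets and a threshold of 0.05. In each day a cosine and a sine of 24-h period were tested by limma's moderated F. F24 is the share of a 6-point profile's variance at 24 h. Correlations between members were tested with 100000 permutations in scipy 1.17.1, or all orders for 6 arrays, and adjusted over the 2 pairs. Likeness was the Pearson r over the 12 arrays among named probe sets with an SD above the median, and the 5 highest and lowest for eEF1alpha2 and the 3 highest for the others are named. From each list, genes past the threshold and up to 3 with the smallest p between the CA phases could be named. Arrays of the same hour on both days had residual correlations from -0.23 to 0.25 and were not treated as pairs. In simulated data, each probe set had independent normal noise of its own spread within groups, and 200 of 13966, picked at random, were changed. There limma recovered 36 of 50 differences of 0.5 and 49 of 50 of 1 between the CA phases, with 6 wrong calls. With many changed probe sets the adjusted threshold is easier to reach than in the real comparison. Most picked probe sets also varied less than eEF1alpha2, whose SDs within groups, the kind of spread simulated, were 0.305 to 0.647. Over all 12 arrays, differences between groups included, its SD was 0.68 against a median of 0.12. The recovery therefore does not say how readily a difference of eEF1alpha2 would be called.

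The members and lists were chosen with earlier results of these data known. Alternatives were each array left out, the 2- and 14-h arrays left out, the arrays of a comparison alone, array weights, a trended and robust prior, a filter at the 20th percentile, centring on the median and the hour as a block. The CA 18-h array was also left out of the lists, the named list genes and the 24-h test, a choice made after seeing the data.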

Additional observations from a re-analysis of the deposited data

How the results depend on the processing

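With 3 arrays in a group and 1 array per hour, a difference between phases cannot be told apart from change with the hour inside a phase. A missed threshold does not show that a gene stayed level. Differences of eEF1alpha2 that use the CA warm arrays kept their sign under every alternative run. Between the CA phases they ran from -1.78 to -0.83 (limma adjusted p 0.0375 to 0.999). Between the warm phases they ran from 0.91 to 1.71 (adjusted p 0.0697 to 0.472). The difference of the phase contrasts ran from -1.91 to -1.02 (adjusted p 0.207 to 0.966). The signs of the eEF1beta differences in these comparisons also held, but without the CA 22-h array they moved from -0.22 to -0.13, from 0.18 to 0.09 and from -0.14 to -0.0458. The count of elongation factors past the threshold moved once, from 0 to 1 between the CA phases without the 2- and 14-h arrays. There eEF1alpha2 was at -1.78 (limma adjusted p = 0.0375), and 14 of all probe sets (0.1%) were called, against 1 on all arrays. That fit leaves out the highest cryophase and the lowest CA warm array of eEF1alpha2, which widens its difference in any case.

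Without the 2- and 14-h arrays, the sign turned for eEF1beta between the AA phases (0.0295) and between the cold phases (-0.0825), and for eEF1gamma in the difference of the contrasts (-0.0425). The array weights were lowest for the CA 18-h array (0.38) and the AA 2-h array (0.41). With them the sign turned for eEF1gamma between the CA phases (-0.0585), between the warm phases (0.0152) and in the difference of the contrasts (-0.0965). Between the cold phases, a difference that does not use the CA 18-h array, it turned for eEF1alpha2 (0.0619) and eEF1beta (-0.0019). The cause was not tested. None of these differences passed the threshold. With 1 array left out at a time, eEF1gamma ran from -0.12 to 0.16 between the CA phases, from -0.0495 to 0.0575 between the AA phases, from -0.0872 to 0.0198 between the cold phases, from -0.19 to 0.094 between the warm phases and from -0.13 to 0.15 in the difference of the contrasts. eEF1alpha2 ran from -0.048 to 0.37 between the AA phases and from -0.44 to 0.12 between the cold phases, and eEF1beta from -0.0287 to 0.0858 between the cold phases. With the hour as a replicate block, eEF1alpha2 differed by -0.12 between the cold phases and by 1.26 (SE 0.29, adjusted p = 0.237) between the warm phases, and the block changed no call. The alternatives for eEF1alpha2 against eEF1alpha1 were not run, since no probe set was annotated to eEF1alpha1.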
